A study of Homo sapiens with 6 samples.

Results

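Cells sense foreign or misplaced nucleic acid with a small set of receptors, adaptors and kinases, and 10 of the 19225 genes in the expression table were followed here as that set. Their rows were found by gene symbol. They are the RNA sensors *DDX58* (which encodes RIG-I), *IFIH1* (MDA5) and *DHX58* (LGP2), the endosomal receptor *TLR3*, the Z-form nucleic acid sensor *ZBP1*, the DNA sensor *MB21D1* (cGAS), the adaptors *MAVS* and *TMEM173* (STING), and the kinases *TBK1* and *IKBKE* (IKKε). All 10 were listed in the table. RNA sequencing covered 6 libraries of SW480, a long-established line of colon cancer cells whose p53 is mutant, and asked how MDM4, a negative regulator of p53, acts on transcripts in such cells. The labels give plasmid transfection as the treatment of all 6 libraries, 3 control and 3 MDM4, the latter transiently transfected with plasmids that encode MDM4. The labels do not name the control plasmid, call the second group "exercised", and do not say that replicates came from separate cultures, so that p-values measure the spread between these libraries, which may be technical. The columns of the table carry the letters G and M, which were read as control and MDM4.

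RIG-I and MDA5 bind double-stranded RNA in the cytosol and pass the signal to MAVS on mitochondria, and LGP2 binds the same ligands but lacks the signalling domain. cGAS makes a cyclic dinucleotide when it meets DNA, and STING receives it, while TLR3 signals from endosomes through its own adaptor, TRIF. These routes meet at TBK1 and IKKε, which phosphorylate the transcription factors IRF3 and IRF7 and so switch on type I and type III interferons and interferon-stimulated genes. Several of the sensors, RIG-I and MDA5 among them, are themselves products of interferon-stimulated genes.

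The plasmid gene itself was read in every library first. Here and below, values of a group are given in the order of replicates 1, 2 and 3. *MDM4* was at 6.35, 7.09 and 5.13 FPKM (fragments scaled to gene length and library size, the deposited unit) in the control libraries and at 188, 185 and 56.3 FPKM in the MDM4 libraries. Every MDM4 library was above every control library, and MDM4 replicate 3 had the lowest level of its group. On the log2 scale *MDM4* differed by 4.33 (SE, the standard error, 0.43, limma adjusted p = 0.161), and a block for the replicate number brought the adjusted p to 4.77e-05. Across genes, the log2 values of the 2 libraries numbered 3 correlated with each other at 0.994, while either of them correlated with the other 4 libraries at 0.977 to 0.9799. Replicate 3 thus stood apart in both groups, and the members' results are given over all 6 libraries and over replicates 1 and 2 alone. This split was set with earlier results of these data known. Reads on listed genes numbered 44452444, 35442896 and 39982379 in the control and 36185588, 34501617 and 32842267 in the MDM4 libraries.

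The cells were checked against markers of their own and of other cell types. Of 8 colon epithelial markers 6 had a mean of at least 0.5 FPKM, led by *KRT8* at 1726 FPKM, while *KRT20* and *CDH17* were below it. Their summed level was 3836, 3630 and 3458 FPKM in the control and 3569, 3492 and 3230 FPKM in the MDM4 libraries. The 8 leukocyte markers summed to between 6.02 and 7.23 FPKM in the 6 libraries. Most of that was *CD68* with a mean of 4.59 FPKM, the B cell marker *MS4A1* was at 0 in every library, and *PTPRC* was at no more than 0.0142 FPKM. The 6 fibroblast and endothelial markers summed to 2.87, 2.12 and 4.50 FPKM in the control and 2.45, 2.27 and 4.54 FPKM in the MDM4 libraries, led by *COL1A1* with a mean of 2.55 FPKM, and so were higher in both libraries numbered 3. Their part in the values of replicate 3 was not tested.

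The 2 cytosolic RNA sensors with a signalling domain, *IFIH1* and *DDX58*, were at 0.434 to 0.537 of the control level in the MDM4 libraries of replicates 1 and 2, and both passed the test there, as did 0.557% of all genes as lower with MDM4. In replicate 3 neither was lower than its control. In these bulk libraries, fewer cells with a transcript and less transcript per cell cannot be told apart. Over all 6 libraries, by limma without a block for the replicate number, 0 of the 12884 genes tested passed the test. So no member did, and 222 genes had an unadjusted p under 0.05. With that block 2 genes and 0 members passed. The adaptors and kinases with the highest levels, *MAVS* and *TBK1*, had log2 fold changes between 0.04 and 0.18 in both comparisons, and the DNA sensor *MB21D1* was close to 0 in every library. The plot of levels by library shows each member.

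**Figure D1:**
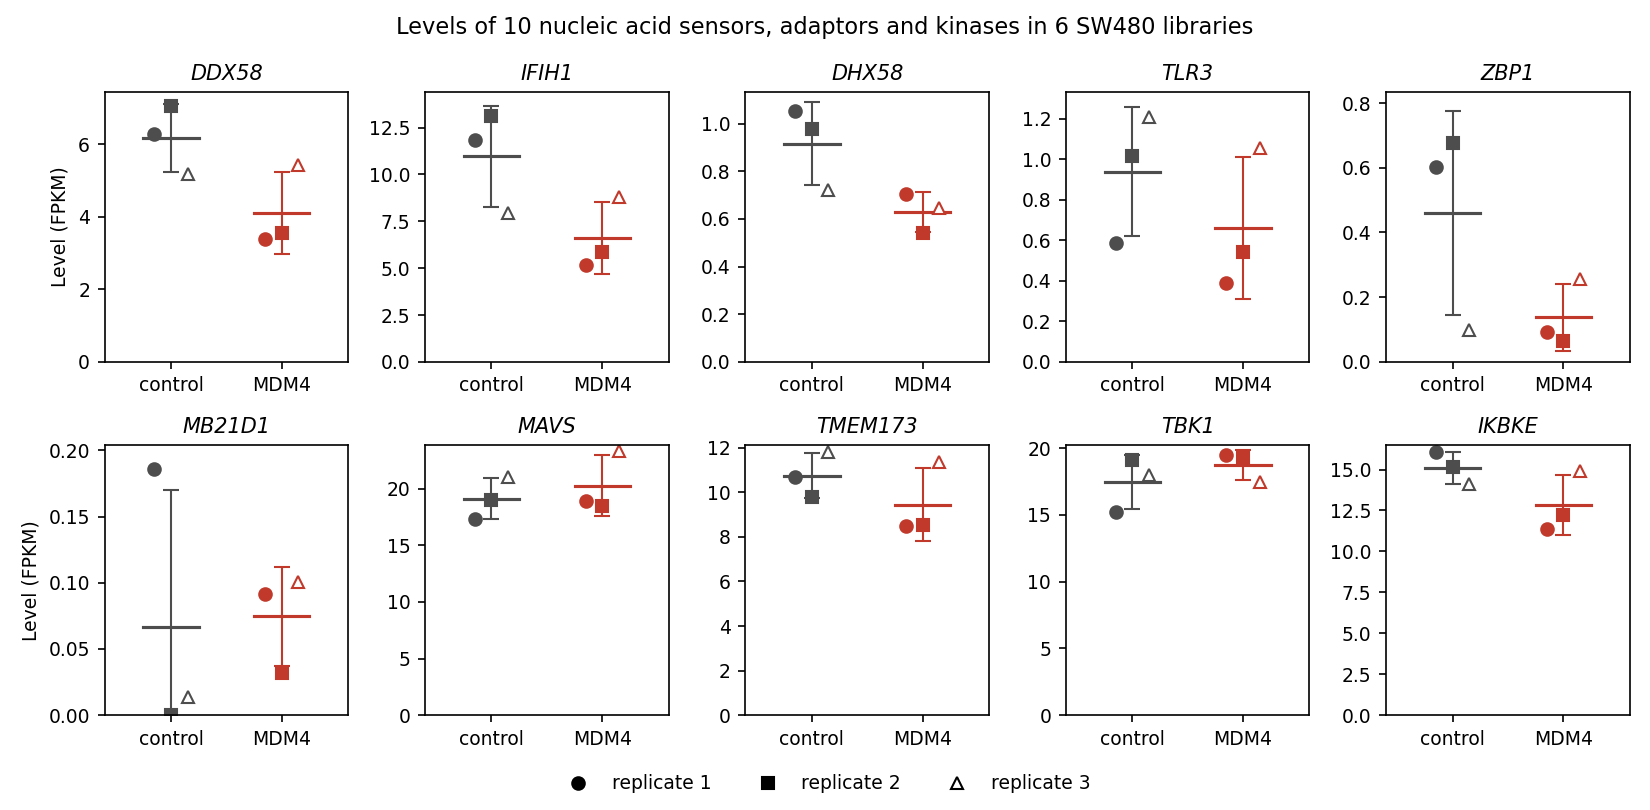
Level of each of the 10 genes (FPKM, linear axis from 0) in the 3 control (grey) and 3 MDM4 (red) libraries, with circles, squares and open triangles for replicates 1, 2 and 3, a bar for the mean and whiskers for 1 SD. In *DDX58*, *IFIH1* and *ZBP1* the filled symbols of the MDM4 group lie below those of the control, while its open triangle lies above that of the control.

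The promoters of members held in the RefSeq promoter table (GRCh38.p14, from 250 bases before to 50 after the annotated start) are shown first, because interferon-regulated genes often carry repeats of the letters GAAA at which IRF and ISGF3 factors bind. The table held 6 of the 10 members, *DDX58*, *IFIH1*, *TLR3*, *MAVS*, *TBK1* and *IKBKE*. Repeats spaced by 2 bases or by 1 were searched on both strands, GAAANNGAAA (TTTCNNTTTC on the other strand) and GAAANGAAA (TTTCNTTTC), of which 3.57% and 3.12% of 35116 promoters held a match and 6.40% held either. A match is a description of letters, not of a bound site. *DDX58* had 1 match, *IFIH1* had 3 and *TLR3* had 1, and *MAVS*, *TBK1* and *IKBKE* had 0 in this window. In the sequences, read 5′ to 3′ on the strand of the gene, capitals mark the matched letters. Positions count from the RefSeq start, and the start in GENCODE, used for gene positions below, can differ. For *DDX58* the GENCODE start lies further upstream, at base 32526324, and so nearer to the match.
DDX58, chr9:32526361-32526429, minus strand, positions -233 to -165 from the start: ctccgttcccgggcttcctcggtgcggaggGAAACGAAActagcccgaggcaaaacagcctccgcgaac
IFIH1, chr2:162318798-162318873, minus strand, positions -189 to -114 from the start, with 2 overlapping matches: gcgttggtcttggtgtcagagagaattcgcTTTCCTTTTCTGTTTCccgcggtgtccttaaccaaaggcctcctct
IFIH1, chr2:162318695-162318735, minus strand, positions -51 to -11 from the start: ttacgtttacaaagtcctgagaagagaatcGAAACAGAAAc
TLR3, chr4:186069122-186069161, plus strand, positions -34 to 6 from the start: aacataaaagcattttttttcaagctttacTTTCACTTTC

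*IFIH1* encodes MDA5, which binds long double-stranded RNA. In GENCODE release 29 on GRCh38 the gene spans bases 162267079 to 162318703 of chromosome 2 on the minus strand. It was at 11.8, 13.1 and 7.93 FPKM in the control (1907, 1685 and 1149 reads) and at 5.14, 5.88 and 8.81 FPKM in the MDM4 libraries (674, 735 and 1048 reads). The 2 high libraries were control replicates 1 and 2, the 2 low ones were MDM4 replicates 1 and 2, and the libraries numbered 3 lay between them with the MDM4 library above its control. Against the control of the same number, the MDM4 library was at 0.434 in replicate 1, 0.448 in replicate 2 and 1.11 in replicate 3. Over all 6 libraries the means were 10.97 ± 2.71 FPKM in the control and 6.61 ± 1.94 FPKM in MDM4 (SD, n = 3; exact two-sided permutation test, p = 0.2, where 0.1 is the lowest value possible with 3 against 3). As a log2 fold change on log2(FPKM + 0.1), this came to -0.73 (SE 0.25, unadjusted p = 0.0204, limma adjusted p = 1.0). Over replicates 1 and 2 it was -1.17 (SE 0.11, limma adjusted p = 2.62e-04), and *IFIH1* fell.

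*DDX58*, on the minus strand of chromosome 9 from 32455705 to 32526324, encodes RIG-I, which binds short double-stranded RNA with a 5′ triphosphate. It was at 6.29, 7.04 and 5.18 FPKM in the control (1338, 1194 and 992 reads) and at 3.38, 3.54 and 5.41 FPKM in the MDM4 libraries (585, 585 and 851 reads). The groups overlapped only through the libraries numbered 3, of which the MDM4 library was slightly above its control. The ratio to the control of the same number was 0.537, 0.503 and 1.04 in replicates 1 to 3. Over replicates 1 and 2 the log2 fold change was -0.92 (SE 0.13, limma adjusted p = 0.00349), so that *DDX58* fell there as well. With the variance moderated without a trend the adjusted p from limma was 0.0542. Over all 6 libraries the log2 fold change was -0.60 (SE 0.21, unadjusted p = 0.0234, limma adjusted p = 1.0), with means of 6.17 ± 0.934 FPKM in the control and 4.11 ± 1.13 FPKM in MDM4 (SD, n = 3; exact two-sided permutation test, p = 0.2).

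*DHX58* encodes LGP2, the family member that tunes the other 2, and lies on the minus strand of chromosome 17 from 42101404 to 42112733. It was at 1.05, 0.975 and 0.722 FPKM in the control (123, 91 and 76 reads) and at 0.703, 0.539 and 0.648 FPKM in the MDM4 libraries (67, 49 and 56 reads). It was the only member whose groups did not overlap, by a gap between 0.722 and 0.703 FPKM. Among the 12884 genes tested, 3.76% had MDM4 libraries all below the control libraries and 3.1% had them all above. The means were 0.916 ± 0.172 FPKM in the control and 0.630 ± 0.0833 FPKM in MDM4 (SD, n = 3; exact two-sided permutation test, p = 0.1, which is the lowest value possible). Its log2 fold change was -0.47 (SE 0.24, limma adjusted p = 1.0) over all 6 libraries and -0.63 (SE 0.24, limma adjusted p = 0.517) over replicates 1 and 2.

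*TLR3*, whose protein detects double-stranded RNA taken up into endosomes, has its place on chromosome 4, plus strand, bases 186069152 to 186088069. It was at 0.588, 1.01 and 1.21 FPKM in the control (80, 110 and 148 reads) and at 0.388, 0.540 and 1.05 FPKM in the MDM4 libraries (43, 57 and 106 reads). Unlike *DDX58* and *IFIH1*, both groups had their highest level in replicate 3, and the MDM4 library was below the control of the same number in all 3 replicates, at 0.660, 0.532 and 0.872 of it. The gene reached the minimum level of 0.5 FPKM over replicates 1 and 2 through the control libraries alone. Its direction there was therefore fixed by the filter. The groups overlapped (exact two-sided permutation test, p = 0.3), and the log2 fold change was -0.49 (SE 0.39, limma adjusted p = 1.0) over all 6 libraries and -0.65 (SE 0.31, limma adjusted p = 0.626) over replicates 1 and 2. With 1 library left out these ranged from -0.84 (without MDM4 replicate 3) to -0.22 (without MDM4 replicate 1) and from -0.995 (without control replicate 1) to -0.30 (without control replicate 2), and none was called.

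*ZBP1* encodes a sensor of left-handed Z-form nucleic acid that can start necroptosis, and lies on the minus strand of chromosome 20 from 57603846 to 57620576. Its reads numbered 48, 43 and 7 in the control and 6, 4 and 15 in the MDM4 libraries, that is 0.603, 0.678 and 0.0977 FPKM and 0.0926, 0.0647 and 0.255 FPKM. Control replicates 1 and 2 were high and the other 4 libraries were low. At these levels *ZBP1* was below the minimum mean of 0.5 FPKM and was not among the genes tested. With no minimum, the log2 fold change over replicates 1 and 2 was -2.05 (SE 0.23, limma adjusted p = 0.0140), and over all 6 libraries it was -1.09 (SE 0.56, limma adjusted p = 1.0). In replicate 3 the MDM4 library was at 2.61 times its control, from 15 against 7 reads.

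*MB21D1*, named *CGAS* in GENCODE and placed on the minus strand of chromosome 6 from 73413515 to 73452276, had 15, 0 and 1 reads in the control and 6, 2 and 6 reads in the MDM4 libraries. Its highest level was 0.186 FPKM, in control replicate 1, and the groups overlapped. No fold change is given at this depth, and a difference was not detectable. The DNA branch was thus read with its sensor near 0 and its adaptor at a moderate level.

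That adaptor, *TMEM173*, encodes STING in the endoplasmic reticulum and lies on the minus strand of chromosome 5 from 139475534 to 139482935. It was at 10.7, 9.79 and 11.8 FPKM in the control and at 8.49, 8.53 and 11.3 FPKM in the MDM4 libraries, from 590 to 951 reads. The MDM4 library was below its control in every replicate, at 0.796, 0.871 and 0.961 of it, and MDM4 replicate 3 reached into the control range. Its log2 fold change was -0.19 (SE 0.14, limma adjusted p = 1.0) over all 6 libraries and -0.26 (SE 0.10, limma adjusted p = 0.534) over replicates 1 and 2. With 1 library left out, the former ranged from -0.33 (without MDM4 replicate 3) to -0.12 (without MDM4 replicate 1).

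*MAVS*, the adaptor of RIG-I and MDA5, is found on chromosome 20, plus strand, bases 3846799 to 3876123, and had the highest mean level of the 10 genes. It was at 17.4, 19.0 and 21.0 FPKM in the control and at 18.9, 18.5 and 23.4 FPKM in the MDM4 libraries, from 7504 to 9872 reads. Both groups were highest in replicate 3 and their ranges overlapped. The log2 fold change was 0.08 (SE 0.12, limma adjusted p = 1.0) over all 6 libraries and 0.04 (SE 0.090, limma adjusted p = 0.925) over replicates 1 and 2, and it turned to -0.027 without MDM4 replicate 3 in the former and to -0.024 without control replicate 1 in the latter.

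Of the 2 kinases, *TBK1* (plus strand of chromosome 12 from 64451880 to 64502108) is expressed in most cells and *IKBKE* (plus strand of chromosome 1 from 206470476 to 206496889) is its inducible relative. *TBK1* was at 15.2, 19.1 and 18.01 FPKM in the control and at 19.5, 19.3 and 17.4 FPKM in the MDM4 libraries. Control replicate 1 was the lowest of the 6 libraries and the groups overlapped, with a log2 fold change of 0.11 (SE 0.11, limma adjusted p = 1.0) over all 6 and 0.18 (SE 0.11, limma adjusted p = 0.703) over replicates 1 and 2. With 1 library left out, the value of *TBK1* was lowest without control replicate 1 and highest without control replicate 2. It ranged from 0.011 to 0.18 over all 6 libraries and from 0.017 to 0.35 over replicates 1 and 2. *IKBKE* was at 16.1, 15.2 and 14.1 FPKM in the control and at 11.4, 12.2 and 14.9 FPKM in the MDM4 libraries. Like *DDX58*, it was lower with MDM4 in replicates 1 and 2, at 0.709 and 0.807 of the control, and not in replicate 3, at 1.05. For *IKBKE* the log2 fold change was -0.24 (SE 0.12, limma adjusted p = 1.0) over all 6 libraries and -0.40 (SE 0.095, unadjusted p = 0.00142, limma adjusted p = 0.153) over replicates 1 and 2.

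**Figure D2:**
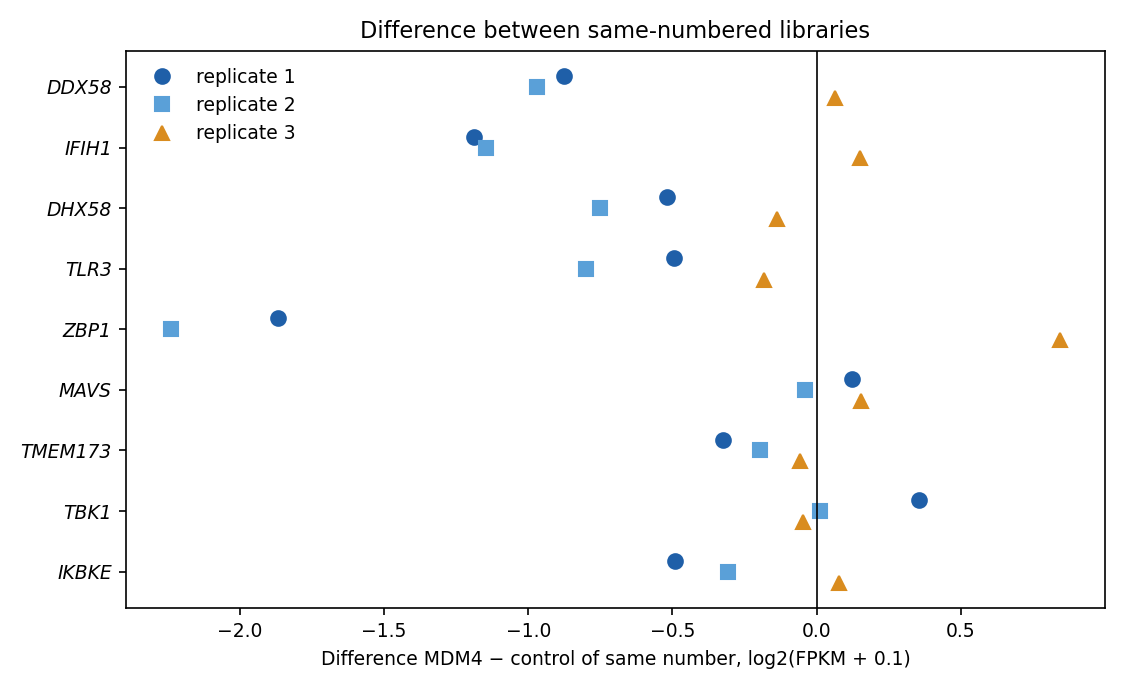
Difference of each MDM4 library from the control library of the same number, on log2(FPKM + 0.1), for 9 of the 10 genes (*MB21D1*, with at most 15 reads, is left out), with dark circles, light squares and orange triangles for replicates 1, 2 and 3. In *DDX58*, *IFIH1*, *ZBP1* and *IKBKE* replicates 1 and 2 lie left of 0 and replicate 3 lies right of it.

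Taken as a list over all 6 libraries, 8 of the 10 members were tested, of which 6 had a lower and 2 a higher mean log2 level with MDM4, with a median log2 fold change of -0.35 against -0.0091 over the 12884 genes tested. By limma 0 members passed the test, and 0% of all genes passed it as lower with MDM4. At an unadjusted p under 0.05 there were 2 members, *DDX58* and *IFIH1*, and 222 of 12884 genes. With the replicate number as a block 0 members passed, with adjusted p-values from limma between 0.295 and 0.627, and 0.00776% of genes passed as lower. In that fit 6 members and 1624 of 12884 genes had an unadjusted p under 0.05. Voom on recovered reads with that block also called 0 members, while 0.179% of genes were called lower, and its lowest adjusted p among them was 0.121, for *IFIH1*.

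Over replicates 1 and 2, 2 of the 8 tested members were called lower, *DDX58* and *IFIH1*, against a background of 0.557% of 12746 genes called lower and 0.0235% called higher. The median of the 8 was -0.52, against -0.0078 over all genes, and that of the 7 without *TLR3*, which reached the minimum level of 0.5 FPKM through the control libraries alone, was -0.40. Those 2 calls held in each fit that left out 1 of the 4 libraries, which has 1 residual degree of freedom and takes a lone library to vary like the others. Without control replicate 2, *TMEM173*, *TBK1* and *IKBKE* were called too (adjusted p = 0.0229, 0.00263 and 6.41e-04 from limma), when 2144 genes were called in place of 74, and without control replicate 1 *IKBKE* was called (limma adjusted p = 0.0248) among 275 genes. Blocking on the replicate number left these 2 members called, while the count of all genes rose from 74 to 173. That fit also has 1 residual degree of freedom and takes its spread from all genes. Its calls do not reflect the spread of the gene itself.

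**Figure D3:**
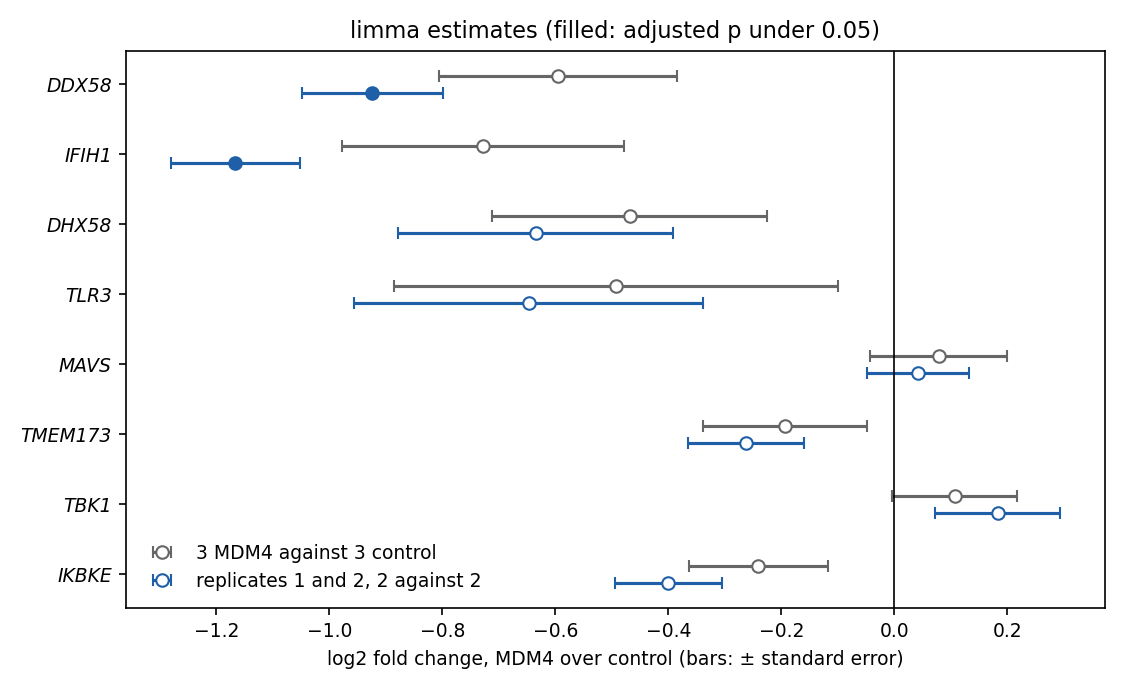
Log2 fold change of MDM4 over control from limma on log2(FPKM + 0.1) for the 8 tested members, over all 6 libraries (grey) and over replicates 1 and 2 (blue), with bars of 1 standard error and filled symbols for an adjusted p under 0.05. The filled symbols are *DDX58* at -0.92 and *IFIH1* at -1.17, both over replicates 1 and 2.

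Whether replicate 3 differed from the other replicates was tested as a term of its own, the difference between MDM4 and control in replicate 3 less that in replicates 1 and 2, which rests on 1 pair of libraries and takes its spread from replicates 1 and 2. It was positive in 7 of the 8 tested members, with a median of 0.47 against 0.0092 over all genes. *IFIH1* was the only member called, at 1.32 on the log2 scale (SE 0.20, limma adjusted p = 0.0225), and 0.186% of 12884 genes were called higher. With no minimum level the adjusted p of *IFIH1* was 0.565, and with the variance moderated without a trend it was 0.317. *DDX58* had a term of 0.99 (SE 0.22, limma adjusted p = 0.240), which was called without control replicate 1 (adjusted p = 0.00167) or without control replicate 2 (limma adjusted p = 0.0127), when 128 and 104 genes were called in place of 25, and not without MDM4 replicate 1 (adjusted p = 0.380) or MDM4 replicate 2 (limma adjusted p = 0.207). By replicate, the median difference of the 8 members was -0.49, -0.53 and 0.0078 in replicates 1 to 3, against -0.023, 0.0016 and -0.0043 over all genes tested.

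The libraries numbered 3 also differed among the controls. In control replicate 3 the level was 0.635 of the mean of control replicates 1 and 2 for *IFIH1*, 0.778 for *DDX58*, 0.712 for *DHX58* and 0.153 for *ZBP1*, but 1.51 for *TLR3*, 1.154 for *MAVS* and 1.153 for *TMEM173*. The level of *MDM4* was lower in replicate 3 of either group too, as given above. The part that the lower *MDM4* level has in the values of replicate 3 was not tested.

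Levels of different genes were compared as FPKM, which divides by the gene length the authors used. In mean FPKM over the 6 libraries the order was *MAVS*, *TBK1*, *IKBKE*, *TMEM173*, *IFIH1*, *DDX58*, *TLR3*, *DHX58*, *ZBP1* and *MB21D1*. In the controls, neighbours whose ranges overlapped were *MAVS* and *TBK1*, *TBK1* and *IKBKE*, *TMEM173* and *IFIH1*, *TLR3* and *DHX58*, and *ZBP1* and *MB21D1*. Over all 6 libraries only *DDX58* and *TLR3* had ranges that did not overlap, a step from 3.38 FPKM in the lowest library of the former to 1.21 FPKM in the highest of the latter. Among genes above 0, *MAVS* was above 74.6% in control mean level, *TBK1* above 72.4%, *IFIH1* above 61.4%, *DDX58* above 49.4% and *MB21D1* above 12.1%. The lengths implied by the values were near the longest GENCODE transcript for *MAVS* (11684 against 11714 bases), *DHX58* (2617 against 2617) and *IFIH1* (3600 against 3595), longer for *DDX58* (4756 against 4353), and shorter for *TLR3* (3041 against 6015), *ZBP1* (1780 against 4213), *MB21D1* (1802 against 3182) and *TMEM173* (1993 against 3200). With the longest transcript as the length, the mean of *TMEM173* would be 6.29 in place of 10.1 FPKM and lie below that of *IFIH1* at 8.80 FPKM, and the mean of *TLR3* would be 0.404 FPKM and lie below that of *DHX58* at 0.773 FPKM.

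Genes with the profile most like each tested member were found by Pearson's r over the 6 libraries on log2(FPKM + 0.1), a description in which all genes share the same libraries. For *IFIH1* they were *SAMHD1* (r = 0.995), which encodes a dNTP hydrolase, the interferon-stimulated gene *IFIT1* (r = 0.985) and *DDX58* (r = 0.984), and for *DDX58* they were *IFIH1*, *NMI* (r = 0.9802) and *MRPL49* (r = 0.979). For *IKBKE* they were *GPR143* (r = 0.995), *UBA7* (r = 0.992), which encodes the activating enzyme of ISG15, and *CKS2* (r = 0.992). Among members, *IKBKE* had an r of 0.952 to *DDX58* and 0.940 to *IFIH1*. The nearest genes of *MAVS* were *HIPK1*, *IFT88* and *VPS13D* (each r = 0.998), those of *TMEM173* were *IGFLR1* (r = 0.997), *PLEKHA4* and *AHSA2* (both r = 0.996), and those of *TLR3* were *ASB4* (r = 0.996), *HELQ* and *TTC9C* (both r = 0.988). For *DHX58* they were *ABR* (r = 0.984), *TGFBI* (r = 0.974) and *COMMD7* (r = 0.973), and for *TBK1* they were *FCF1* (r = 0.996), *DNAJB14* and *SMU1* (both r = 0.976). The SDs of these genes on the log2 scale ranged from 0.062 (*COMMD7*) to 1.11 (*IFIT1*).

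**Figure D4:**
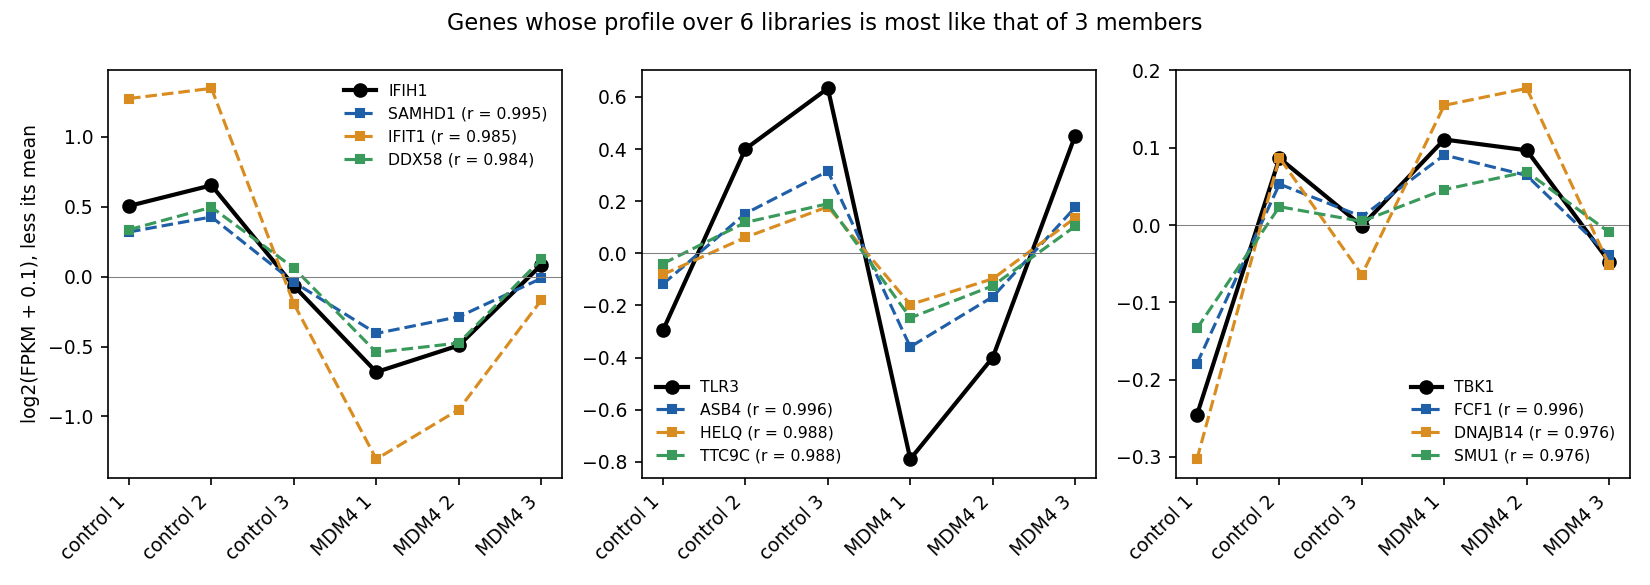
Level of *IFIH1*, *TLR3* and *TBK1* (black) and of the 3 genes with the highest Pearson r to each (coloured, dashed) in the 6 libraries, as log2(FPKM + 0.1) less the gene's own mean over the libraries. The *IFIH1* panel separates control and MDM4 replicates 1 and 2. In the *TLR3* panel each gene is highest in control replicate 3, and in the *TBK1* panel each is lowest in control replicate 1. The lines only link the libraries of a gene.

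The rest of the pathway was read through 70 other genes in 6 lists, all of them in the table. Over replicates 1 and 2, 67 were tested, of which 10 were called lower with MDM4 and 0 higher by limma, beside the 0.557% of all genes called lower. Of the 67, 5 reached the minimum level through the control libraries alone, so that a lower level with MDM4 was fixed by the way they entered the test, and 3 of the 10 called were among these 5. At an unadjusted p under 0.05 there were 19 of them and 1050 of 12746 genes, and their median log2 fold change was -0.098. Over all 6 libraries 66 were tested and 0 called, 8 had an unadjusted p under 0.05, and voom on recovered reads with the replicate block called 2, *IFIT2* and *ISG15* (adjusted p = 0.0432 and 0.0359). Without control replicate 3, limma called 4 genes of these lists, among 21 of all genes. Fold changes, medians and tests of these lists below are over replicates 1 and 2 unless stated otherwise. With the replicate number as a block, that fit has 1 residual degree of freedom and takes its spread from all genes. Its p-values do not reflect the spread of the single gene and are given as a description.

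The genes that act around RIG-I and MAVS, ubiquitin ligases and phosphatases among them, were nearly all close to 0 in log2 fold change, with a median of -0.0067 and 7 of 14 lower. The 1 gene called was *USP18*, an interferon-stimulated protease that removes ISG15 from proteins, at 4.81, 4.63 and 2.81 FPKM in the control and 1.63, 2.31 and 2.72 FPKM in the MDM4 libraries (log2 fold change over replicates 1 and 2 -1.24, SE 0.17, limma adjusted p = 0.00401). The ubiquitin ligase *RNF125* showed a log2 fold change of 0.23 (limma adjusted p = 0.747) and the ligase *ITCH* one of 0.20 (limma adjusted p = 0.690). The phosphatase *PPP1CA*, with the highest level of the list at a mean of 172 FPKM, had one of -0.086 (limma adjusted p = 0.811).

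The kinase partners and transcription factors had a median of -0.066, with 10 of 15 lower and 1 called. That was *IRF7*, the interferon-inducible transcription factor, at 12.3, 10.1 and 6.44 FPKM in the control and 4.90, 4.74 and 6.15 FPKM in the MDM4 libraries (log2 fold change over replicates 1 and 2 -1.19, SE 0.12, limma adjusted p = 3.87e-04). Its constitutive relative *IRF3*, the most abundant of the list with a mean of 55.7 FPKM, showed a log2 fold change of -0.20 (SE 0.099, limma adjusted p = 0.635), and the kinase *CHUK* had 0.22 (SE 0.095, limma adjusted p = 0.577).

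Of the 9 partners of TLR3 and ZBP1, 7 were lower and 0 were called, with a median of -0.16. The death-domain adaptor *TRADD* showed a log2 fold change of -0.32 (limma adjusted p = 0.432), the protease *CASP8* -0.21 (limma adjusted p = 0.594), the adaptor *TICAM1*, which encodes TRIF, -0.17 (limma adjusted p = 0.724), and *FADD*, the most abundant with a mean of 34.7 FPKM, -0.17 (limma adjusted p = 0.704).

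Among the other DNA sensors and the regulators of cGAS and STING, 12 of 14 tested genes were lower, or 11 of the 13 that reached the minimum level in both groups, with a median of -0.11 either way, and 1 was called. It was *SAMHD1*, at 21.8, 23.5 and 16.9 FPKM in the control and 13.1, 14.3 and 17.3 FPKM in the MDM4 libraries (log2 fold change over replicates 1 and 2 -0.72, SE 0.093, limma adjusted p = 0.00246). The DNA-binding protein gene *IFI16* was at 0.842, 0.882 and 0.464 FPKM in the control and 0.211, 0.527 and 0.553 FPKM in the MDM4 libraries (log2 fold change over replicates 1 and 2 -1.12, SE 0.34, limma adjusted p = 0.343, and 0.0233 with the replicate number as a block). It reached the minimum level through the control libraries alone, so that its direction was fixed by the filter. *RNASEH2C*, a subunit of the RNase that clears RNA from DNA, had -0.24 (limma adjusted p = 0.577), and *BANF1*, the chromatin protein that keeps cGAS off nuclear DNA, had -0.11 (limma adjusted p = 0.769).

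Other proteins that bind double-stranded RNA had a median of -0.15 with 7 of 8 lower and 1 called, the helicase gene *DDX60*. It was at 2.55, 3.28 and 0.814 FPKM in the control and 0.859, 0.778 and 1.03 FPKM in the MDM4 libraries (log2 fold change over replicates 1 and 2 -1.71, SE 0.19, limma adjusted p = 8.76e-04). *EIF2AK2*, the gene of the RNA-dependent kinase PKR, had -0.55 (SE 0.14, limma adjusted p = 0.175, and 1.31e-04 with the replicate number as a block). Its differences were -0.24 in replicate 1 and -0.87 in replicate 2, a spread that the block p-value does not reflect. The RNA-editing enzyme gene *ADAR* had -0.29 (SE 0.072, limma adjusted p = 0.172).

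The genes that this pathway switches on showed the widest differences between the groups of replicates 1 and 2. Of 9 listed, 7 were tested, of which *IFNL1*, *IFNL2*, *IFNL3* and *CCL5* had MDM4 means under 0.5 FPKM and reached the minimum level through the control libraries alone. The direction of these 4 was therefore fixed by the filter, and their calls and any median that holds them are a description. Of the 3 that reached the minimum in both groups, *IFIT1*, *IFIT2* and *ISG15*, all 3 were called lower, with a median log2 fold change of -2.44. Limma also called *IFNL1*, *IFNL2* and *IFNL3*, and the median of the 7 was -2.67, the value of *IFIT2*. A floor of 3 reads per library put *IFNL1* at -3.59 and *IFNL2* at -3.89. Both stayed below the median, which therefore could not change. The median of the 6 tested over all 6 libraries was -1.64, and that of the 3 that reached the minimum in both groups was -1.62. The type III interferon genes *IFNL2* and *IFNL3* had 43, 55 and 0 reads and 57, 51 and 0 reads in the control, against 0, 0 and 1 reads and 2, 0 and 4 reads in the MDM4 libraries, and they are near-identical copies between which reads may have been split. *IFNL1* was at 0.940, 1.44 and 0 FPKM in the control libraries and at 0 in each MDM4 library. Its reads came to 36 and 44 in control replicates 1 and 2 at a length of 856 bases, which is 4 times the smallest length that the values allow and the multiple nearest to its longest GENCODE transcript of 857 bases. *IFNB1*, the type I interferon, had 2, 6 and 0 reads in the control libraries and 0 in each MDM4 library and was below the minimum level, as was the chemokine gene *CXCL10* with 14, 24 and 0 reads in the control and 2, 2 and 0 in the MDM4 libraries, taken at 2 times its smallest length in the same way. Control replicates 1 and 2 were thus the only libraries with more than 4 reads on any of the 4 interferon genes.

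*ISG15*, a ubiquitin-like modifier, was at 232, 240 and 92.7 FPKM in the control and 89.8, 95.7 and 86.1 FPKM in the MDM4 libraries (log2 fold change over replicates 1 and 2 -1.35, SE 0.065, limma adjusted p = 5.60e-07). *IFIT1*, whose protein binds foreign RNA, was at 4.95, 5.22 and 1.73 FPKM in the control and 0.746, 0.982 and 1.76 FPKM in the MDM4 libraries, and its relative *IFIT2* was at 6.01, 6.83 and 1.02 FPKM and 0.872, 0.981 and 1.31 FPKM. In both genes control replicates 1 and 2 were high and the other 4 libraries low. *IFIT1* and *IFIT2* had log2 fold changes of -2.44 and -2.67 over replicates 1 and 2 (SEs 0.18 and 0.16, adjusted p = 1.68e-05 and 2.89e-06 from limma). The chemokine gene *CCL5* had 86, 55 and 1 reads in the control and 27, 10 and 13 reads in the MDM4 libraries, with a log2 fold change of -1.62 over replicates 1 and 2 (SE 0.33, limma adjusted p = 0.0718, and 1.13e-06 with the replicate number as a block). In the term for replicate 3, 5 of the 6 output genes tested were called higher, *IFIT1*, *IFIT2*, *ISG15*, *IFNL2* and *IFNL3*. The latter 2 reached the minimum level only through control replicates 1 and 2, by which the sign of their term was set. *IFIH1* was called higher among the members, and 0 genes of the other 5 lists were called, where *DDX60* had the lowest adjusted p, 0.0769 from limma. At an unadjusted p under 0.05, 13 genes of the 6 lists and 293 of 12884 genes passed in that term. With no minimum level 0 genes of the 6 lists were called in it, and with the variance moderated without a trend 1 was.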

How the data were processed

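The authors enriched mRNA with oligo(dT), sequenced it and deposited 1 table of FPKM values for 19225 symbols; the aligner, annotation and genome build are not given in the sources used here. Column totals were 389031 to 404970. Values were whole multiples of 1 step per gene and library, from which whole reads and a gene length were recovered for 17189 of 17189 genes above 0. These are the smallest whole numbers the steps allow, so a gene above 0 in few libraries can have a multiple of them; reads of the pathway's output genes were taken at the multiple nearest to the longest GENCODE transcript, a step chosen after seeing the data. No library shared values with another. No molecular identifiers are mentioned, so reads were not taken as independent molecules.

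Tests used limma 3.58.1 (R 4.3.3; lmFit, then eBayes with trend) on log2(FPKM + 0.1), kept genes whose mean over the libraries of the fit reached 0.5 FPKM, and took Benjamini-Hochberg adjusted p-values over all genes kept. A gene was called at an adjusted p under 0.05. For single genes, exact permutation tests (two-sided, scipy 1.17.1) compared FPKM between the groups. Python 3.11.15, numpy 2.4.6, pandas 2.3.3 and matplotlib 3.10.9 made tables and plots.

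Replicate numbers are shared by both groups. Deviations from the group means correlated across genes at 0.458, 0.451 and 0.783 in same-numbered libraries, at 0.462 and 0.439 between replicates 1 and 2 across groups, and at -0.625 to -0.563 between replicate 3 and the others. Same-numbered libraries were thus about as alike as differently numbered ones in replicates 1 and 2, and only replicate 3 stood apart. The numbers paired the libraries in the ratios by replicate. The main fit did not pair them, and the fit with the number as a block was an alternative. Others were pseudocounts of 0.5 and 1, no minimum, a minimum mean of 1 FPKM, and median ratio and TPM scaling. Also used were eBayes without trend, voom on recovered reads and each library left out. The named genes are *MDM4*, the members, in each pathway list the 3 with the largest absolute change over replicates 1 and 2 and the most abundant, *IFNB1*, *IFNL1*, and the 3 genes most like each tested member; a gene that this rule also names is not reported here, and other genes were named after their values were seen. The members and lists, and the split that sets replicate 3 apart, were chosen with earlier results of these data known. Values for single members over replicates 1 and 2 and for the replicate 3 term under each alternative, and counts and medians of genes that reached the minimum level in both groups, were added after seeing the data. Positions come from GENCODE release 29 on GRCh38 and promoters from RefSeq on GRCh38.p14. The qPCR, co-culture and public cancer data were not analysed here.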

Additional observations from a re-analysis of the deposited data

Results flagged for a closer look

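*IFIH1* was called in the test of whether its difference between MDM4 and control was another in replicate 3 than in replicates 1 and 2. The difference between MDM4 and control in replicate 3 less that in replicates 1 and 2 was 1.32 on the log2 scale (standard error 0.20, adjusted p = 0.0225 from limma), with ratios of MDM4 to control of 0.434 and 0.448 in replicates 1 and 2 and 1.11 in replicate 3. It rests on 1 pair of libraries in replicate 3, and all of its spread comes from replicates 1 and 2. The call was lost with no minimum level (adjusted p = 0.565 from limma) and with the variance moderated without a trend (adjusted p = 0.317 from limma), and the 4 fits that each left out a library of replicates 1 and 2 gave between 1.22 and 1.41.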

How the results depend on the processing

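Over all 6 libraries 0 genes were called, against 2 with the replicate number as a block, 27 by voom with the replicate block and 0 to 21 with 1 library left out, the most without control replicate 3. Over replicates 1 and 2, 74 genes were called, against 29 by eBayes without trend, 173 with the replicate block and 93 to 2144 with 1 library left out, the most without control replicate 2. There, 2 members were called, against 1 by eBayes without trend and 2 to 5 with 1 library left out, and 10 pathway genes, against 7 by eBayes without trend, 8 with a minimum mean of 1 FPKM, 9 with no minimum level, 13 with the replicate block and 12 to 25 with 1 library left out. In the replicate 3 term 25 genes and 1 member were called, against 0 and 0 with no minimum level, 5 and 0 by eBayes without trend, and 50 to 128 and 1 to 2 with 1 library left out. With no minimum level over replicates 1 and 2, 56 genes and 3 members were called, *DDX58*, *IFIH1* and *ZBP1*. The cause of these shifts was not tested. The log2 fold change of *MAVS* turned to -0.027 over all 6 libraries without MDM4 replicate 3 (range with 1 library left out -0.027 to 0.15) and to -0.024 over replicates 1 and 2 without control replicate 1 (range -0.024 to 0.11). Of the other values of the tested members under alternatives, 317 kept direction and side of the threshold, 8 newly passed it and 3 no longer did. These counts take the main fit over replicates 1 and 2 as an alternative of that over all 6 libraries. By it *DDX58* and *IFIH1* newly passed. The replicate block changed no call of a member. Among named genes it changed those of *MDM4*, *IFI16*, *EIF2AK2* and *CCL5*, given in the report. Of these, *IFI16* and *CCL5* reached the minimum level through the control libraries alone. Over replicates 1 and 2 the block fit has 1 residual degree of freedom and takes its spread from all genes. A pseudocount of 1 brought the log2 fold change of *DHX58* to -0.23 over all 6 libraries and -0.31 over replicates 1 and 2. For *TLR3* it gave -0.23 and -0.29. The median log2 fold change or term of all genes lay between -0.011 and 0.020 under each scaling. Depth limits *ZBP1*, *MB21D1* and the interferon genes, and the replicate 3 term rests on 1 pair of libraries.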
